A study of Mus musculus with 419 samples.

Results

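Expression of 9 genes that build plasma lipoproteins was followed through 19 tissues of CBA/CaJ mice kept either with sufficient energy (Control) or in an energy deficit (Deficient), as a model of the relative energy deficiency (REDs) that occurs in athletes. The genes, chosen by symbol among 55487 in the deposited count table, were Apoa1, Apoa2, Apoa4, Apoa5, Apob, Apoc2, Apoc3, Apoe and Mttp. Of 419 bulk RNA-seq libraries, 418 were used, and 1 tendon library with more than 1000 CPM (counts scaled to the library total) of the liver gene Alb was left out. Each tissue was collected at zeitgeber times ZT05 and ZT17 with 3 libraries in a full group of sex, treatment and time, so that an arm of 1 sex and 1 treatment held 6 libraries (5 in 2 tendon arms). All females (12 animals) and the males sampled for liver (12 animals) carry numbers of a first series. In males, the kidney, adrenal gland and several muscles came from 12 animals numbered separately. For those tissues sex and this numbering cannot be told apart. Males of brown adipose tissue, spleen and quadriceps carry numbers of both series. How the deficit was produced, and the ages, are not given in the sources used here.

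Lipoproteins carry triglyceride and cholesterol through blood. In hepatocytes and enterocytes, MTTP, the microsomal triglyceride transfer protein, loads lipid onto the growing APOB chain, which remains the structural backbone of very-low-density particles and chylomicrons. APOA1 and APOA2 are the main proteins of high-density lipoprotein, and APOA4 is made chiefly by the intestine and also by rodent liver. APOC2 activates lipoprotein lipase, APOC3 slows the clearance of triglyceride-rich particles and APOA5 favours it, and APOE is the ligand by which remnants are taken up through receptors of the LDL receptor family. APOE is also made by macrophages, astrocytes and steroid-producing cells, and APOB and MTTP are made in kidney and heart as well as in liver and gut.

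By the GENCODE annotation of GRCm38, 4 of the genes form 1 cluster of 43.3 kb on chromosome 9. Apoa1 (ENSMUSG00000032083) spans chr9:46228580-46230466 on the plus strand, Apoc3 (ENSMUSG00000032081) chr9:46232933-46235636 on the minus strand, Apoa4 (ENSMUSG00000032080) chr9:46240696-46243459 on the plus strand and Apoa5 (ENSMUSG00000032079) chr9:46268633-46271919 on the plus strand. Apoe (ENSMUSG00000002985, chr7:19696109-19699188) and Apoc2 (ENSMUSG00000002992, chr7:19671579-19677941) lie on the minus strand at the ends of a 27.6 kb cluster with Apoc1 and Apoc4. The remaining members stand apart: Apoa2 (ENSMUSG00000005681) at chr1:171225054-171226379, Apob (ENSMUSG00000020609) at chr12:7977648-8016835 and Mttp (ENSMUSG00000028158) at chr3:138089854-138144968.

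RefSeq promoter sequence on GRCm38.p6, which is that of the reference strain and not of CBA/CaJ, was held for 7 of the 9 members. The windows of the 6 members whose treatment response was called in liver or kidney and that had one are printed here without the transcribed bases, 5′ to 3′ on the strand of the gene. Capitals mark matches, on either strand, to a forkhead core (TGTTTNC), to an HNF4 core (CAAAGNNCA) and to a TATA box (TATAAA).
Apoa1 promoter, chr9:46228380-46228579, plus strand: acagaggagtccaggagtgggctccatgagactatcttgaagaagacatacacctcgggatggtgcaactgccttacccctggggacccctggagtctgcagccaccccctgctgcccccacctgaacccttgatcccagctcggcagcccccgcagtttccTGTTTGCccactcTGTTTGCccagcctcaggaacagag
Apoa2 promoter, chr1:171224804-171225053, plus strand: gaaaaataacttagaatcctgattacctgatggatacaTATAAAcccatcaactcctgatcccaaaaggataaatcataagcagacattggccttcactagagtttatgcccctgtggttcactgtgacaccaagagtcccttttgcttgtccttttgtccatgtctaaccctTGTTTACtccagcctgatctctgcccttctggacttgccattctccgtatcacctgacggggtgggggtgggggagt
Apoa4 promoter, chr9:46240594-46240695, plus strand: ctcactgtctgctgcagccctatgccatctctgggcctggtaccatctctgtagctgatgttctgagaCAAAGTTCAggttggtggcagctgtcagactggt
Apoa5 promoter, chr9:46268383-46268632, plus strand: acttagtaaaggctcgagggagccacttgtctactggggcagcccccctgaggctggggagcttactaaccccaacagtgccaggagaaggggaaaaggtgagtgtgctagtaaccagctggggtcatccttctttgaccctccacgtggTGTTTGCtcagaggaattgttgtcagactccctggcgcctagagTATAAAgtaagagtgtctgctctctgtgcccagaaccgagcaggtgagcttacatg
Apob promoter, chr12:7977427-7977647, plus strand: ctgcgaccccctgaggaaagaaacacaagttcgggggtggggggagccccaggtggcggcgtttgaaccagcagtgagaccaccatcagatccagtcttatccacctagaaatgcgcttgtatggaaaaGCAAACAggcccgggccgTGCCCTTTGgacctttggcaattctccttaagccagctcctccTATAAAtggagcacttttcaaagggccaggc
Apoe promoter, chr7:19699189-19699438, minus strand: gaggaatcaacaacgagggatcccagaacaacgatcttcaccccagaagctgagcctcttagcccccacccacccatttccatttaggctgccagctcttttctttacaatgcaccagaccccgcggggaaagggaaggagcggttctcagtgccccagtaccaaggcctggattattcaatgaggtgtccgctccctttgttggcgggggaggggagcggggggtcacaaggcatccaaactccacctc
The Apoa1 window held 2 forkhead cores, 32 and 19 bases before its end. The Apoa2 and Apoa5 windows held 1 forkhead core each, 71 and 94 bases before their ends. Both also held the letters of a TATA box, 207 bases before the end for Apoa2 and 51 for Apoa5. The shorter Apoa4 window held an HNF4 core 26 bases before its end. The Apob window held a forkhead core and an HNF4 core, both read on the opposite strand, and a TATA box 26 bases before its end. The Apoe window held none of the 3 motifs. Among 32851 RefSeq promoter windows of 250 bases, 17.8% held the forkhead core, 5.49% the HNF4 core and 12.4% the TATA box. These matches describe letters only, and binding was not measured.

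All 9 genes had their highest Control level in liver. Over the 12 Control liver libraries, with scaling factors shared by all tissues, Apoe ran from 5242 to 16250 CPM with a median of 10076. The Apoa2 median was 7353 CPM (3899 to 8858), that of Apoa1 6192 CPM (3774 to 11319) and that of Apob 5586 CPM (1888 to 12284). Apoc3 had a median of 2153 CPM, Apoa5 1352 CPM, Mttp 325 CPM and Apoa4 174 CPM. On unscaled library totals the medians were lower, at 4581 CPM for Apoe, 3429 for Apoa2, 2272 for Apoa1 and 3334 for Apob. All 9 genes were highest in liver on that scale too. Except for Apoc2, no liver library of a member overlapped the range of the tissue ranked next. Because Apob is a very long transcript (13.93 kb of exon), levels between genes were compared per kilobase. On that scale the mean was 13097 CPM per kb for Apoa2, 5167 for Apoa1, 5088 for Apoe, 2336 for Apoc3, 527 for Apoa5, 461 for Apob, 111 for Apoa4 and 53.2 for Mttp. Apoa2 thus led per length. It also led within each sex on the scale of the liver alone (3860.5 CPM per kb in Control females and 3753 in Control males), but the order below it differed: in females Apoe (1730.2) lay above Apoa1 (1198) and Apob (195) above Apoa5 (161), and in males Apoa1 (1915) lay above Apoe (1157) and Apoa5 (144) above Apob (54.1). These orders rest on means and were not tested.

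Apoc2 stood apart from the rest with a liver median of 2.15 CPM and 3 of 12 Control libraries at 0. In the annotation, 79.5% of its exon bases (646 bases) are shared on the same strand with the predicted gene Gm44805, which was itself listed at 0 in all 12 libraries. How the authors' counting treated shared exons is not given in the sources used here, so the Apoc2 level is uncertain. Its neighbour Apoc4 had a median of 882 CPM. In no tissue other than liver did Apoc2 pass the filter on low counts.

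**Figure D1:**
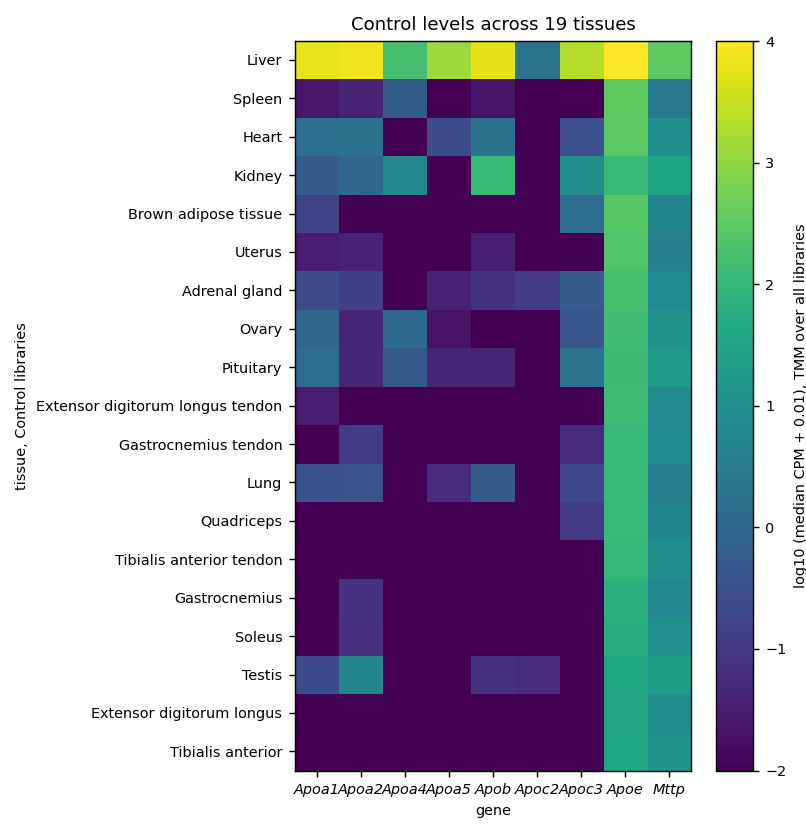
Median Control level of each of the 9 genes (columns) in each of 19 tissues (rows), shown as log10 of CPM plus 0.01. TMM scaling was over all libraries, and tissues below liver are ordered by the sum of the 9 medians. Liver is the brightest row in every column, Apoe and Mttp are present in all tissues, and Apob has its only other bright cell in kidney.

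Outside liver the genes separated into those found everywhere and those nearly restricted to liver. Apoe and Mttp passed the low-count filter in all 19 tissues, Apoa1, Apoa2 and Apoc3 in 10, Apob in 9, Apoa5 in 6 and Apoa4 in 5. After liver, Apoe was highest in spleen (median 331 CPM, 211 to 446), heart (310 CPM, 142 to 671) and brown adipose tissue (272 CPM, 130 to 668), whose ranges overlapped. It was lowest in the tibialis anterior muscle, with a median of 37.1 CPM (22.5 to 61.6). The liver median was 30.4 times that of spleen and 271 times that of tibialis anterior. Mttp followed another order, with kidney next (33.8 CPM, 22.5 to 58.5), then testis (22.0 CPM, 20.8 to 24.1) and pituitary (19.7 CPM, 11.2 to 24.5), these ranges overlapping in turn. Spleen, among the highest for Apoe, was lowest for Mttp at 2.93 CPM (1.96 to 3.40). Of the Apob outside liver most was in kidney, where the median was 114 CPM (34.7 to 290.0) and the liver median 48.9 times higher.

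The remaining members were sparse outside liver. Kidney held Apoc3 at 9.64 CPM (5.18 to 15.9) and Apoa4 at 6.22 CPM (3.62 to 9.34). Testis held Apoa2 at 5.25 CPM (3.82 to 5.48) with Alb at no more than 0.201 CPM. In pituitary, Apoc3 was spread from 0.248 to 16.7 CPM and Apoa4 from 0 to 4.98 CPM, and in brown adipose tissue Apoc3 had a mean of 1.88 ± 2.09 CPM (SD, n = 12). Testis and kidney values thus lay close together, whereas those of pituitary and brown adipose tissue were spread widely. Apoa5 was scarce, with means of 1.65 ± 2.07 CPM in heart, 0.836 in quadriceps and 0.409 in lung (n = 12 each), and Apoc2 reached 0.118 in adrenal gland and 0.0539 in testis.

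In heart, lung and quadriceps, levels of the secreted members moved with hepatocyte markers. Apoa1 in male Control hearts ran from 1.59 to 36.8 CPM (median 14.4) against 0 to 0.948 in female Control hearts, on the scale of that tissue. The summed level of 11 hepatocyte markers, Alb among them, was 80.1 to 680 CPM in those males and 6.41 to 38.6 CPM in the females. Apob behaved alike in heart, at 2.16 to 22.1 CPM in males and 0 to 0.900 in females. In lung, Apoa1 ran from 0.815 to 21.3 CPM in Control males with hepatocyte markers at 32.0 to 535 CPM, and from 0 to 0.175 CPM in females with markers at 5.59 to 8.68 CPM. A single male Control quadriceps library (ZT05, replicate 1) held 40.7 CPM of Apoa1, 38.4 of Apoa2 and 19.0 of Apob with 404 CPM of Alb. Of the 11 hepatocyte markers, 11 also passed the low-count filter in adrenal gland and in gastrocnemius tendon, and 7 in spleen. Carry-over of RNA from liver was not tested in any tissue, and the levels of these members are given as listed.

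The first question for liver was whether the energy deficit changed the assembly and apolipoprotein genes. In females none of the 9 passed the test, and in males Apoa2, Apoe and Apoa5 rose in the fit of both sexes together, though none of these passed with males fitted alone, while the assembly pair Apob and Mttp stayed near 0 on the log2 scale in both sexes. Levels from here on are CPM with scaling within the tissue, and log2 fold changes are Deficient minus Control averaged over both times, with standard errors and adjusted p-values from edgeR's quasi-likelihood test over all genes of the tissue. In bulk tissue fewer cells of a type and less RNA per cell cannot be told apart.

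Male liver libraries stood apart from female ones before any gene was compared. Alb, the defining hepatocyte gene, had a median of 90613 CPM over the Control livers of both sexes on the scale shared by all tissues. Mitochondrially encoded genes took 76.4% to 93.2% of counts in male Control livers and 21.8% to 86.6% in male Deficient livers, against 5.24% to 6.53% in all female livers. Genes of ribosomal RNA type took up to 72.6% of a male library. The counts left for all other genes were 396892 to 1059560 in male Control and 404879 to 1501140 in male Deficient livers, against 16310200 to 24264600 in females. Over the whole series, library totals ran from 5777450 to 53598700 with a median of 17426200, and 0 pairs of libraries held identical values. Male liver values thus rest on far fewer counts than female ones, and their precision is lower for the scarce members.

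Among the particle backbone and its loading factor, Apob in female liver ran from 2207 to 3112 CPM in Control (median 2750) and from 2291 to 3178 in Deficient (median 3023), a log2 difference of 0.08 ± 0.17. In males it ran from 627 to 907 CPM and from 503 to 971 CPM, a difference of -0.05 ± 0.17. Mttp ran from 112 to 157 CPM and from 84.5 to 155 CPM in females (-0.13 ± 0.16), and from 35.4 to 70.2 CPM and from 41.8 to 74.6 CPM in males (0.04 ± 0.17). The treatment arms overlapped nearly fully for both genes, with adjusted p-values of 0.889 and 0.751 in females and 0.918 and 0.935 in males (edgeR).

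Of the high-density lipoprotein genes, Apoa2 in male liver ran from 1348 to 2943 CPM in Control (median 1958) and from 1524 to 5169 in Deficient (median 3583). It rose by 0.74 ± 0.19 (adjusted p = 0.0136), although the arms overlapped, and the call held in each of 24 refits that left out 1 liver library. In females Apoa2 was level at 2073 ± 163 CPM and 2080 ± 228 CPM (SD, n = 6 each). Apoa1, its partner on the same particles, ran from 1276 to 3820 CPM in male Control liver (median 2349) and from 1234 to 2246 in Deficient (median 1643), a difference of -0.45 ± 0.20 that did not pass (adjusted p = 0.16). In females Apoa1 had medians of 1413 and 1625 CPM (0.22 ± 0.20, adjusted p = 0.652). The estimates for Apoa1 and Apoa2 thus had opposite signs in males.

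Apoe, the remnant ligand, ran in male liver from 1812 to 3195 CPM in Control (median 2557) and from 2817 to 5372 in Deficient (median 3686). It rose by 0.60 ± 0.17 (adjusted p = 0.0294), with the lowest Deficient libraries inside the Control range. In females the medians were 4015 and 4000 CPM and the difference 0.12 ± 0.17 (adjusted p = 0.81). Among the regulators of triglyceride clearance, Apoa5 in males ran from 230 to 572 CPM in Control (median 320) and from 381 to 1261 in Deficient (median 535). It rose by 0.88 ± 0.25 (adjusted p = 0.0249), the largest of the 3 male increases. In females Apoa5 ran from 307 to 482 CPM and from 418 to 696 CPM, a difference of 0.45 ± 0.24 that did not pass (adjusted p = 0.377).

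Apoc3 had Control and Deficient medians of 969.5 and 1434 CPM in males (0.51 ± 0.20, adjusted p = 0.11), where the Deficient arm spread from 610 to 1881 CPM, and of 485 and 525.9 CPM in females (0.15 ± 0.20). Apoa4 had male medians of 14.9 and 20.7 CPM (0.60 ± 0.22, adjusted p = 0.0879) and female medians of 84.4 and 103 CPM (0.18 ± 0.18). Neither gene passed in either sex. Apoc2 lay between 0 and 3.005 CPM in all male libraries (1.70 ± 0.84) and between 0.461 and 1.16 CPM in females (0.28 ± 0.30), too close to the counting floor of the male libraries for a comparison.

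**Figure D2:**
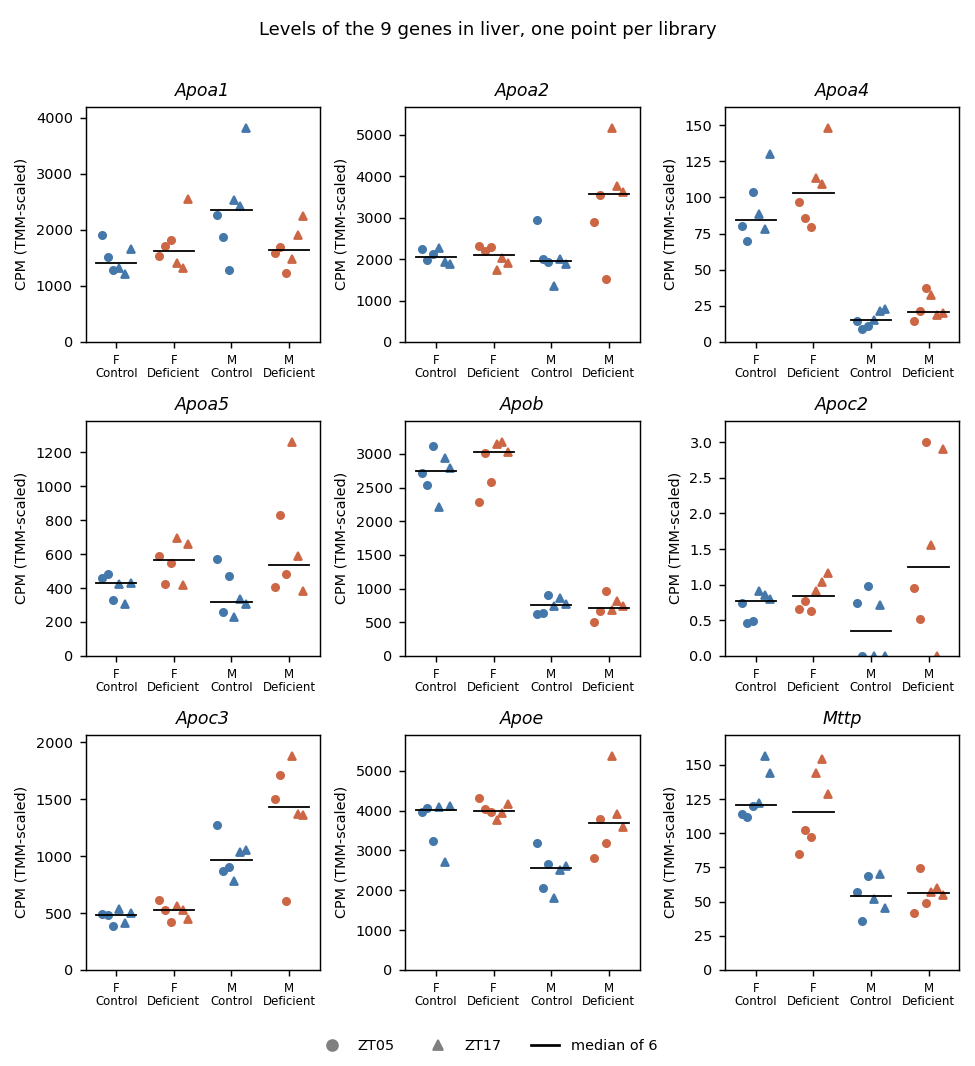
CPM of each of the 9 genes in every liver library, on linear axes from 0, by sex and treatment, with circles for ZT05, triangles for ZT17 and a bar at the median of 6. Treatment arms overlap in every panel, the male Deficient medians of Apoa2, Apoa5 and Apoe lie above the male Control medians, and the sexes are separated for Apob, Apoa4 and Mttp.

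In all, 3 of 9 members were called in the male liver, all upward, where 8.53% of the 13406 genes tested were called, and 0 of 9 in the female liver, where 4.93% were. The members' median log2 difference was 0.60 in males against 0.07 for all genes, and 0.15 in females against 0.03. At an unadjusted p under 0.05, 6 members passed in males and 0 in females, and DESeq2 called 3 and 0. The shares of all genes under these settings are not given here, so these counts have no background beside them. The 3 male calls depended on the libraries and on the fit. With males fitted alone 0 of 9 were called, with adjusted p = 0.138 for Apoa2, 0.0969 for Apoa5 and 0.207 for Apoe. On simulated liver counts with more spread between males than between females, the fit of both sexes together called more unchanged genes in males than its threshold allows, and in both sexes it found few of the genes given the smallest change. The female count of 0 does not show that the genes were unchanged. Leaving out any of 4 male libraries ended the calls of Apoa5 and Apoe: without Control ZT05 replicate 2 the adjusted p was 0.0687 and 0.0649, without Control ZT17 replicate 1 it was 0.0706 and 0.0843, without Deficient ZT05 replicate 2 it was 0.0884 and 0.0642, and without Deficient ZT17 replicate 1 it was 0.133 and 0.0882. Conversely Apoc3 passed without Deficient ZT05 replicate 3 (adjusted p = 0.00818) and Apoa4 without Deficient ZT05 replicate 1 (adjusted p = 0.0336). Beside these values, summed hepatocyte markers had medians of 17526 CPM in male Control and 14181 CPM in male Deficient livers, and of 62887 and 58436 CPM in the females. Of 11 hepatocyte markers 1 rose and 0 fell in males, and 0 passed in females. The part of the mitochondrial share and of the depth in the male results was not tested.

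Whether males and females responded differently was tested directly and 0 of 9 members passed, where 0.731% of all genes did. At an unadjusted p under 0.05, 2 members passed the test of the female minus the male response, and DESeq2 called 0. The 2 members were Apoa2 at -0.74 ± 0.26 (adjusted p = 0.183) and Apoa1 at 0.67 ± 0.28 (adjusted p = 0.25). The shares of all genes under these settings are not given here. Apoe stood at -0.48 ± 0.25, Apoa5 at -0.43 ± 0.34, Apoa4 at -0.41 ± 0.28, Apoc3 at -0.36 ± 0.28, Mttp at -0.17 ± 0.23, Apob at 0.12 ± 0.23 and Apoc2 at -1.42 ± 0.92. The male calls are therefore not shown to be particular to males. Without male Deficient ZT05 replicate 3, Apoa2 passed this test at -0.88 with an adjusted p of 0.0424 (edgeR).

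Female and male libraries were next compared in Control liver, where sex and the library differences given above cannot be told apart. The test called 6 of 9 members, 4 higher in females and 2 higher in males, where 60.1% of all genes were called, so the share of members was near the background. Apoa4 was higher in females by 2.58 ± 0.21 (adjusted p = 3.44e-11), with 70.2 to 129.9 CPM in females and 8.99 to 23.0 in males. Apob was higher by 1.85 ± 0.17 (adjusted p = 4.31e-10), with 2207 to 3112 CPM against 627 to 907. Mttp was higher by 1.22 ± 0.16 (adjusted p = 3.28e-07), with 112 to 157 CPM against 35.4 to 70.2. For these 3 genes, the intestinal-type apolipoprotein, the backbone and the loading factor, no female Control library overlapped a male one. Apoc3 was separated as fully in the other direction, with 383 to 532 CPM in females and 781 to 1276 in males. The share of all genes without overlap is not given here. Apoe was also higher in females, by 0.58 ± 0.17 (adjusted p = 0.0051), whereas Apoc3 (-1.08 ± 0.20, adjusted p = 3.52e-05) and Apoa1 (-0.64 ± 0.20, adjusted p = 0.00673) were lower in females. Apoa2 (0.05 ± 0.19), Apoa5 (0.19 ± 0.24) and Apoc2 (0.92 ± 0.82) did not pass.

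Gene length moved with this sex difference. The median female minus male difference was -0.72 among 722 genes with up to 1 kb of exon, 0.02 among 1580 genes of 1 to 2 kb, 0.17 among 4066 of 2 to 4 kb, 0.29 among 4795 of 4 to 8 kb and 0.38 among 2230 longer ones. The member medians were 0.58 against 0.21 for all genes. Apob (13.93 kb) and Mttp (6.21 kb) are long and lay further from 0 than the median of their length class, and Apoa4 (1.81 kb) was higher in females although short. Apoc3 (1.01 kb) and Apoa1 (1.24 kb), higher in males, lay at -1.08 and -0.64, below the 0.02 of their class. The shortest members, Apoa2 (0.54 kb, 0.05) and Apoc2 (0.81 kb, 0.92), did not pass and lay above the -0.72 of theirs. The part of length, of depth and of the mitochondrial share in these differences was not tested. The Apoa1 difference did not pass without a low-count filter (-0.40, adjusted p = 0.0703) or without male Control ZT17 replicate 3 (-0.47, adjusted p = 0.052), and that of Apoe did not pass under a filter of 5 CPM in 3 libraries (0.32, adjusted p = 0.101). The sign for Apoa2 and Apoa5 changed with the scaling or the filter.

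**Figure D3:**
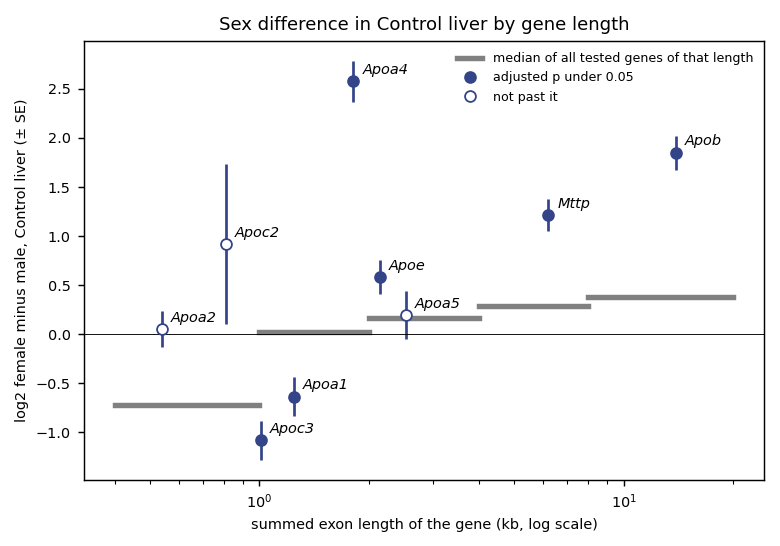
Female minus male log2 difference in Control liver (vertical axis, with SE) against exon length in kb (log axis) for the 9 genes, with grey bars at the median of all tested genes in each length class. The grey bars climb from -0.72 below 1 kb to 0.38 above 8 kb. Apoa2, Apoc2, Apoe, Apoa4, Apob and Mttp lie above the bar of their class, Apoa5 close to it, and Apoc3 and Apoa1 below.

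No member was called for collection time in liver, in tests that averaged over the sexes. Time was not tested within a sex, where some group means (n = 3) went opposite ways. From ZT05 to ZT17 in Control, Apoa1 went from 1809 to 2924 CPM in males and from 1568 to 1394 in females. With the deficit, male Apoa2 went from 2286 to 2649 CPM at ZT05 and from 1745 to 4192 at ZT17. Female Apoa2 went from 2119 to 2270 and from 2027 to 1891 CPM. ZT17 minus ZT05 in Control mice gave 0 of 9 calls where 8.83% of genes were called, in Deficient mice 0 of 9 where 0.738% were, and the change of the treatment response between times 0 of 9 where 3.43% were. At an unadjusted p under 0.05 the members numbered 1, 0 and 0, and DESeq2 called 0 in each, with the shares of all genes under these settings not given here. Apoa4 was the member passing before adjustment, at 0.49 ± 0.21 in Control (adjusted p = 0.144). In Control mice the others were Apoa1 0.26 ± 0.20, Mttp 0.16 ± 0.16, Apob 0.02 ± 0.17, Apoc3 0.01 ± 0.20, Apoe -0.12 ± 0.17, Apoa2 -0.23 ± 0.19, Apoa5 -0.36 ± 0.24 and Apoc2 -0.61 ± 0.85. In Deficient mice all 9 estimates were above 0, from 0.12 ± 0.20 for Apoc3 to 0.31 ± 0.16 for Mttp and 0.60 ± 0.43 for Apoc2, with Apoa1 at 0.19, Apoa2 at 0.20, Apoa4 at 0.30, Apoa5 at 0.28, Apob at 0.16 and Apoe at 0.17. The response at ZT17 exceeded that at ZT05 by 0.64 ± 0.34 for Apoa5 (adjusted p = 0.329) and 0.43 ± 0.26 for Apoa2, with 0.29 for Apoe, 0.15 for Mttp, 0.14 for Apob, 0.11 for Apoc3, -0.07 for Apoa1, -0.19 for Apoa4 and 1.21 ± 0.93 for Apoc2.

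The patterns of the members over the 8 liver groups fell into separate sets. Over 8 group means of log2 CPM, Pearson's r was 0.97 between Apoa4 and Apob, 0.97 between Apob and Mttp and 0.96 between Apoa4 and Mttp, while Apoc3 ran the other way (-0.95 with Apob). All these points share the split between female and male libraries, which differ in depth and mitochondrial share. Among 4775 genes of at least 8 CPM, Agmo (r = 0.999), Calu and Zmpste24 were most like Apob, Crp (0.991), Mocs2 and Iqgap2 most like Mttp, and Josd1 (0.992), Atp13a3 and Dpys most like Apoa4. For Apoc3 they were Camta2 (0.998), Pfdn5 and Uxt, and for Apoe Psmb4 (0.971), Eif3d and Pemt. The closest genes to Apoa5 were the metallothionein genes Mt2 (0.935) and Mt1 (0.932), then Dnmbp. Apoa1 had Psmb3 (0.939), Arglu1 and Eif2s2, Apoa2 had Ndufa1 (0.942), Ncaph2 and Eif3b, and Apoc2 had Rusc2 (0.986). The Apoc2 group means, from 0.236 to 1.49 CPM, lay near the counting floor of the male libraries, so its r says little.

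Other genes of lipoprotein transport were followed in 5 lists with 73 genes, of which 71 were tested in liver. In all, 8 were called in females (11.3%, where 4.93% of all genes were) and 17 in males (23.9%, where 8.53% were). Of other apolipoproteins, 10 were tested in liver, and 0 rose and 3 fell in females (median -0.23 against 0.03 for all genes), namely the serum amyloid genes Saa1 (-1.74 ± 0.31), Saa2 (-1.27 ± 0.28) and Saa4 (-0.71 ± 0.16), acute-phase apolipoproteins of high-density lipoprotein. In males 1 rose and 2 fell (median -0.19 against 0.07), with Apoh up from 274 to 576 CPM (1.06 ± 0.21), Apof down by 0.85 and Saa4 down by 0.79 on the log2 scale.

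Of 18 partners in assembly and secretion, 0 rose and 1 fell in female liver (median -0.02 against 0.03). This was Plin2, a lipid droplet coat gene, which went from 136 to 70.8 CPM (-0.94 ± 0.15). In male liver 3 rose and 4 fell (median 0.10 against 0.07). Tm6sf2, whose product promotes lipid loading of very-low-density particles, went from 10.4 to 20.2 CPM (1.17 ± 0.19). Dgat1, a triglyceride synthase, rose by 0.83 ± 0.19 and the cargo receptor gene Surf4 by 0.65 ± 0.20. The APOB mRNA-editing enzyme gene Apobec1 went from 17.7 to 8.90 CPM (-0.98 ± 0.20), and Sort1 (-1.05 ± 0.33), Lpcat3 (-0.71 ± 0.18) and Cideb (-0.69 ± 0.18) were also lower. Partners of assembly thus moved in both directions in males while Apob and Mttp themselves were not called.

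Among 10 receptor and uptake genes, 2 rose and 0 fell in female liver (median 0.03 against 0.03) and 3 rose and 0 fell in males (0.11 against 0.07). Vldlr, a receptor for triglyceride-rich particles, went from 2.54 to 7.42 CPM in females (1.63 ± 0.20), and Scarb1, the high-density lipoprotein receptor gene, rose by 0.87 ± 0.16 in females and 0.65 ± 0.19 in males. Lrp1, a remnant receptor gene, rose by 0.73 ± 0.23 in males, though leaving out 1 library ended this call in 21 of 24 refits. Of 12 genes of plasma lipases, transfer and remodelling, 0 passed in female liver (median -0.10 against 0.03), and 0 rose and 3 fell in males (-0.18 against 0.07). Pltp, the phospholipid transfer protein gene, went from 35.8 to 6.45 CPM (-2.53 ± 0.32), and the lipase maturation gene Lmf1 (-0.80 ± 0.17) and hepatic lipase Lipc (-0.52 ± 0.16) were lower. Of 21 regulators of these genes, 2 rose and 0 fell in females (median 0.04 against 0.03), Ppargc1a by 0.84 ± 0.21 and Foxo1 by 0.60 ± 0.16, and 1 rose in males (-0.02 against 0.07), Foxa2 by 1.03 ± 0.32. In the refits without 1 liver library, the calls of Ppargc1a and Foxo1 were lost in 4 and 6, of Sort1 in 14, of Lipc in 17, of Surf4 and Foxa2 in 7 each, of male Scarb1 in 6 and of Saa2 and Lpcat3 in 1 each. With males fitted alone Surf4, Cideb, Dgat1, Sort1, Lrp1, Scarb1, Lipc and Foxa2 were not called.

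Kidney, where proximal tubule cells express Apob and Mttp, gave more calls than any other tissue outside liver. Of all genes tested there, 9.43% were called in females and 40.8% in males. In females Apoa2, Apoa1, Apoe and Apoc3 rose with the deficit, and in males Apoe, Apob and Apoc3 rose and Apoa4 fell. Apoe and Apoc3 rose in both sexes. Apoa5 and Apoc2 did not pass the low-count filter, which left 7 members.

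Apoe in female kidney ran from 173 to 327 CPM in Control (median 258) and from 476 to 1054 in Deficient (median 757), without overlap (1.59 ± 0.24, adjusted p = 0.00016). In males it ran from 76.3 to 119 CPM (median 97.4) and from 172 to 545 CPM (median 306), again without overlap (1.65 ± 0.24, adjusted p = 2.01e-05). The female minus male difference in response was -0.06 ± 0.33 and did not pass (adjusted p = 0.932). Apoc3 rose in females from a median of 9.88 to 18.4 CPM (0.94 ± 0.18, adjusted p = 0.00151) and in males from 14.7 to 25.9 CPM (0.74 ± 0.18, adjusted p = 0.0027), with overlapping arms in both. The male Apoc3 call was lost without all libraries of replicate 2 (adjusted p = 0.0748).

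The high-density lipoprotein genes were scarce in kidney but changed in females. Apoa2 ran from 1.08 to 1.91 CPM in female Control (median 1.70) and from 4.32 to 13.6 in Deficient (median 7.12), without overlap (2.35 ± 0.25, adjusted p = 3.55e-06). Apoa1 ran from 0.253 to 0.682 CPM (median 0.446) and from 0.788 to 2.22 CPM (median 1.38), without overlap (1.71 ± 0.32, adjusted p = 0.00164). In males neither passed, with Apoa2 at 0.76 ± 0.35 (adjusted p = 0.0865) and Apoa1 at 0.28 (adjusted p = 0.507), where the Control arm already ran from 0.652 to 2.46 CPM. The response of Apoa2 was larger in females by 1.60 ± 0.44 (adjusted p = 0.0191) and that of Apoa1 by 1.43 ± 0.46 (adjusted p = 0.0392). The Apoa1 difference was lost with a term for replicate number (adjusted p = 0.0527) and in 15 of 24 refits without 1 kidney library, and that of Apoa2 was lost without male Control ZT05 replicate 1 (adjusted p = 0.116) or male Control ZT17 replicate 3 (0.0562). Leaving out all kidney libraries of replicate 1, 2 or 3 ended both calls each time, with adjusted p-values of 0.205, 0.131 and 0.130 for Apoa1 and 0.116, 0.128 and 0.0811 for Apoa2.

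For the assembly pair, Apob in male kidney ran from 45.8 to 60.6 CPM in Control (median 52.1) and from 79.9 to 120.5 in Deficient (median 98.7), without overlap (0.90 ± 0.20, adjusted p = 0.00132). In females it was several times more abundant, from 227 to 351 CPM (median 242) and from 114 to 442 CPM (median 295), and did not pass (0.14, adjusted p = 0.699). Mttp did not pass in females (-0.25 ± 0.10, adjusted p = 0.13) or in males (0.26 ± 0.11, adjusted p = 0.0574), but the responses differed between the sexes by -0.51 ± 0.15 (adjusted p = 0.0261), a call lost in 5 of 24 refits without 1 library, each with an adjusted p between 0.0512 (without male Control ZT05 replicate 3) and 0.0566 (without female Control ZT05 replicate 1). It was also lost in each refit without a replicate number (0.176, 0.0835 and 0.0549 without 1, 2 and 3). Apoa4 in males ran from 4.92 to 12.1 CPM (median 7.63) and from 4.24 to 7.87 CPM (median 5.46), a fall by 0.52 ± 0.20 (adjusted p = 0.0381) lost in 10 of 24 such refits, and was 0.13 in females (adjusted p = 0.693).

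**Figure D4:**
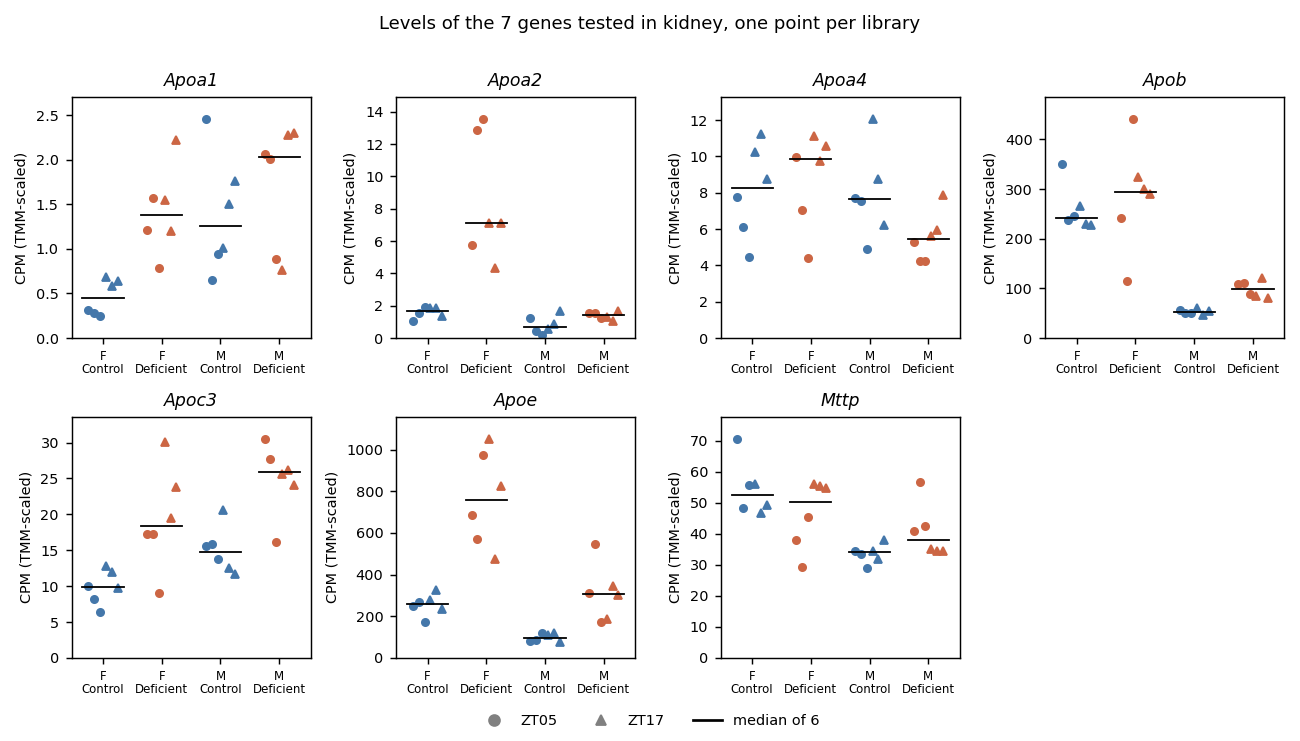
CPM of the 7 genes tested in every kidney library, on linear axes from 0, by sex and treatment, with circles for ZT05, triangles for ZT17 and a bar at the median of 6. Apoe is higher in all Deficient than in all Control libraries of each sex, Apoa1 and Apoa2 separate only the female arms and Apob only the male arms.

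In all, 4 of 7 members were called in female kidney, all upward, where 9.43% of 16797 genes were called, and 4 of 7 in male kidney, 3 upward and 1 downward, where 40.8% were. The medians were 0.94 and 0.74 against 0.01 and 0.03 for all genes. In the direct test of the sexes 3 of 7 passed, where 13.9% of genes did, and 0 of these 3 calls held when a replicate number was left out. In Control kidneys 6 of 7 members differed between females and males, where 67.4% of genes did: Apob (2.29 ± 0.21), Apoe (1.36 ± 0.24), Apoa2 (0.95 ± 0.33) and Mttp (0.70 ± 0.11) were higher in females, and Apoa1 (-1.71 ± 0.35) and Apoc3 (-0.62 ± 0.18) were lower. Apoa4 was higher at ZT17 than at ZT05 in Control kidneys by 0.57 ± 0.19 (adjusted p = 0.0451), the only one of 7 called in that comparison, where 13.7% of genes were.

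Hepatocyte markers changed in kidney, in which several of them are also made, though not all the same way. Their sum was 75.8 to 101 CPM in female Control and 96.5 to 164 in female Deficient kidneys, and 67.6 to 99.9 and 143 to 232 CPM in males, with 0 of 11 markers at 0 in every library. Of 8 tested, 4 rose and 0 fell in females, and 4 rose and 2 fell in males. Serpina1a rose from a median of 36.2 to 117 CPM in males and from 20.2 to 34.0 CPM in females. The 2 that fell in males were Ttr (-1.17) and Serpina3k (-2.19). Alb itself ran from 46.8 to 61.8 and from 37.0 to 71.7 CPM in the female arms (-0.09, adjusted p = 0.77), while Apoa1 and Apoa2 rose there. In males Alb ran from 11.1 to 22.0 and from 19.3 to 34.5 CPM (0.56, adjusted p = 0.011). Macrophage markers, cells that make APOE, summed to 122 to 161 and 98.8 to 131 CPM in the female arms and 130 to 273 and 75.9 to 135 CPM in the male arms. Of 9 macrophage markers, 1 fell and 0 rose in females and 7 fell and 0 rose in males. Other marker sets moved too: of 8 adipocyte markers 1 rose and 0 fell in females and 4 rose and 0 fell in males, and of 5 stellate and fibroblast markers 2 rose and 2 fell in each sex. The adipocyte sum was 4683 to 8344 and 6029 to 9436 CPM in the female arms and 4218 to 6619 and 5688 to 9102 CPM in the male arms. The adipocyte list holds Pck1 beside genes such as Adipoq and Plin1. Which gene makes up the sum was not separated, so the sum does not measure fat cells. The part of any of these markers in the kidney results was not tested.

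The other lists in kidney gave 3 of 5 other apolipoproteins up and 1 down in females (median 0.997 against 0.01), and 2 up and 1 down in males (0.06 against 0.03). Assembly partners gave 0 up and 1 down of 18 in females and 1 up and 5 down in males, receptors 0 up and 1 down of 11 and 1 up and 3 down, lipases and transfer genes 2 up and 0 down of 12 and 3 up and 2 down, and regulators 2 up and 1 down of 19 and 6 up and 3 down. Their medians were -0.05, -0.01, -0.18 and 0.15 in females, and -0.13, 0.15, 0.02 and 0.23 in males. Of 65 genes tested from these 5 lists, 11 were called in females (16.9%, where 9.43% of all genes were), a count that went to 2 without the libraries of replicate 1 and to 4 without those of replicate 3, and 27 in males (41.5%, where 40.8% of all genes were), which went to 18 without replicate 2. The male share is thus near the background.

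Beyond liver and kidney, 4 calls remained, all in Apoe or Mttp. In the uterus Mttp ran from 5.53 to 11.0 CPM in Control (median 9.08) and from 12.7 to 30.0 in Deficient (median 23.96), without overlap (1.34 ± 0.19, adjusted p = 0.000432), in a tissue where 45% of all genes were called. Of 9 macrophage markers 8 fell in that uterus comparison, and their sum went from 845 to 1342 CPM in Control to 307 to 631 in Deficient. Other marker sets moved too. Of 4 cholangiocyte markers 4 fell, of 5 stellate and fibroblast markers 1 rose and 3 fell, and of 4 skeletal muscle markers tested 2 fell. Of 2 enterocyte and 2 hepatocyte markers tested, 1 each rose, and of 8 adipocyte markers 0 passed. The part of any of these markers in the Mttp result was not tested. In the extensor digitorum longus, a fast hindlimb muscle, Apoe of females ran from 24.8 to 36.3 CPM and from 40.1 to 44.3 CPM, without overlap (0.40 ± 0.10, adjusted p = 0.00648), where 31.9% of genes were called. Mttp of males in the same muscle went from a median of 8.52 to 12.3 CPM with overlap (0.49 ± 0.12, adjusted p = 0.0126), where 12.9% were called. In the soleus, a slow muscle, Apoe of males ran from 47.5 to 62.1 CPM and from 68.6 to 78.0 CPM, without overlap (0.41 ± 0.13, adjusted p = 0.0456), where 9.89% were called.

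The muscle calls were lost in single refits. That of Apoe in extensor digitorum longus was lost without replicate 3 (adjusted p = 0.129), that of Mttp there without replicate 1 (0.0868) or 2 (0.0822), and that of Apoe in soleus with a term for replicate number (0.0575) and without replicate 1 (0.256) or 2 (0.255), each such refit leaving out all libraries with that number. In females of the extensor digitorum longus 7 of 9 macrophage markers fell and 0 rose. Of 4 stellate and fibroblast markers tested there 1 rose and 3 fell, and of 5 skeletal muscle markers 0 rose and 2 fell. The part of any of these markers in the Apoe result was not tested. The hepatocyte markers were too low to be tested in either muscle.

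Counted over all tissues other than liver, 6 of 77 pairs of member and tissue were called in females, all upward, where 10.5% of gene and tissue pairs were called, and 6 of 72 in males, 5 upward and 1 downward, where 6.11% were. The male count went to 2 without the libraries of replicate 2. The share of members called was therefore near the background of these tissues. Apoe was above 0 in 13 of 17 female and 14 of 16 male tissues outside liver, and Mttp in 12 of 17 and 15 of 16, with most of these estimates not passing the test. The same animals gave many of the tissues, so these counts are not independent.

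**Figure D5:**
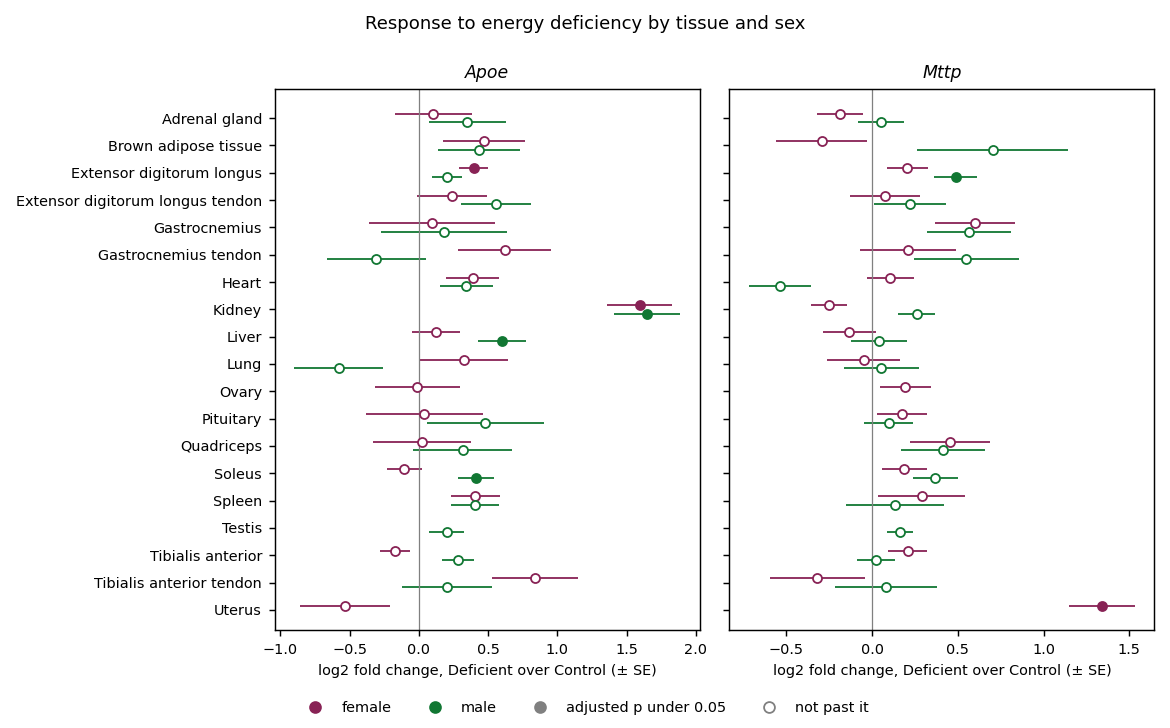
Log2 fold change, Deficient minus Control, with SE, of Apoe and Mttp in each tissue and sex, with filled symbols for adjusted p under 0.05. For Apoe the kidney of both sexes (1.59 and 1.65) lies furthest to the right, and for Mttp the uterus (1.34).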

How the data were processed

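Bulk RNA-seq was made from total RNA taken up in TRIzol, with 500 ng entering Illumina's stranded poly(A) library kit, per the labels' protocols. The authors deposited whole-number read counts per gene and library; per the submitters' processing notes, reads were handled with STAR 2.7.10a, cutadapt 4.1 and FastQC 0.11.9 on GRCm38 (mm10), and DESeq2 1.34.0 is listed too. The counting tool and annotation are not given in the sources used here. A second deposited table, of normalized values, was not used, and 0 count columns were left without a sample. Each tissue was fitted alone in edgeR 4.0.16 (R 4.3.3, limma 3.58.1): default expression filter (minimum count 10, minimum total 15), TMM scaling and a quasi-likelihood fit with a coefficient for every combination of sex, treatment and time. Benjamini-Hochberg adjustment ran over all genes of the fit, with calls at an adjusted p under 0.05; the standard error is the log2 fold change over the root of F. Levels across tissues used TMM factors over all libraries.

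The 9 genes and all lists were chosen with earlier results of these data known. All 9 are named in liver; elsewhere a gene is named where called or where a tissue is among its 3 highest in Control. From each list up to 4 liver calls with the largest change in each sex are named, with any call against the list's main direction; a few genes that these rules would name are not reported here. Genes most alike were the 3 with the highest r over the liver group means. The fit was tested on simulated liver counts: in males, given the larger spread, more of its calls were false than the threshold allows, and few of the genes given the smallest change were found in either sex. Alternatives were DESeq2 1.42.0, its size factors in edgeR, no filter or 5 CPM in 3 libraries, removal of mitochondrial and rRNA-like genes, each sex alone, a replicate term, a cohort term, the tendon library kept and libraries left out. Kidney refits without 1 library, and all alternatives for the other lists, were added after seeing the data. Libraries of a group carry different animal numbers, so p-values measure the spread between animals and libraries together. Members with few counts in male liver are the least precise.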

Additional observations from a re-analysis of the deposited data

Results flagged for a closer look

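The female minus male response differed in kidney for 3 genes by the direct test: Apoa1 by 1.43 and Apoa2 by 1.60 on the log2 scale, larger in females, and Mttp by -0.51. Each of the 3 calls was lost in all 3 refits without a replicate number, with adjusted p-values from 0.0549 to 0.205. The sexes in kidney came from separately numbered animals.

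In 3 of 70 arms of 6 libraries examined, 1 library lay far from the rest, where chance gives about 1 in 20. Apob reached 351 CPM in female Control kidney ZT05 replicate 1 and Mttp 56.7 CPM in male Deficient kidney ZT05 replicate 2. Apob reached 0.769 CPM in Control uterus ZT17 replicate 2.

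The library left out, gastrocnemius tendon of a Deficient male at ZT17 (replicate 2), held liver genes on unscaled totals: 15578 CPM of Alb against 1.52 and 1.67 in the other 2 of its group. It held 3190 CPM of Apoa1, 2089.5 of Apoa2, 170 of Apoa4, 373 of Apoa5, 492.6 of Apob, 596 of Apoc3, 4397 of Apoe and 30.7 of Mttp. In the other 2 libraries Apoa1 was at most 0.152, Apob at most 0.1604, Apoe at most 187 and Mttp at most 7.86 CPM.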

How the results depend on the processing

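Counts of members called kept within 1.5 times except as follows. In the male liver 0 were called with each sex fitted alone against 3, and 1 to 4 without 1 library. The sex difference in liver gave 0 to 1 and Control females against males 5 to 6 without 1 library. Outside liver the 6 female pairs became 10 with no filter and 10 by DESeq2 (5 to 6 without a replicate number), and the 6 male pairs became 12 with no filter and 11 with the tendon library kept (2 to 8). Of the other transport genes, the 8 called in female liver became 13 by DESeq2 and 20 with females alone (6 to 10 without 1 library), and the 17 in male liver became 8 with males alone (10 to 19). In kidney the 11 female calls became 17 with no filter (2 to 12) and the 27 male calls gave 18 to 25 without a replicate number. Signs changed for Apoa2 in female liver with a replicate block (0.0040), for Apoc3 by time in Control with no filter (-0.015), and between Control sexes for Apoa2 with DESeq2 size factors (-0.058), the stricter filter (-0.21) and DESeq2 (-0.058) and for Apoa5 with the stricter filter (-0.072). Without 1 library, estimates spanning 0 ran from -0.030 to 0.045 for Apoa2 in females, -0.18 to 0.056 for Apob and -0.11 to 0.15 for Mttp in males; by time in Control from -0.028 to 0.12 for Apob and -0.051 to 0.10 for Apoc3; in Deficient from -0.029 to 0.49 for Apoa5 and -0.047 to 0.26 for Apoc3; and for the time difference from -0.26 to 0.052 for Apoa1 and -0.048 to 0.25 for Apoc3. Apoa2 between Control sexes ran from -0.0021 to 0.21. The cause was not tested. The median of all genes between Control liver sexes moved by -0.11 with DESeq2 size factors, 0.41 with no filter, -0.11 with the stricter filter and -0.16 with DESeq2. Replicate numbers did not pair libraries (mean residual correlation -0.03 to 0.09 by tissue). With the replicate block 7 female and 5 male pairs were called outside liver, 3 members in male and 0 in female liver, and of the transport genes 12 in male liver. The cohort term and the removal of mitochondrial genes changed no count beyond 1.5 times. Under other scalings of the levels across tissues, the liver median moved by at least its SD in 5 comparisons of gene and scaling.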

Other observations

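The ovary held a pattern of its own for Apoa1 and Apoa4, which sit in the same cluster on chromosome 9. In Control ZT05 replicate 2, Apoa4 was at 128 CPM and Apoa1 at 87.9 CPM, and in replicate 3 at 21.6 and 21.9 CPM. Deficient ZT05 replicate 3 held 50.5 CPM of Apoa4 and 22.2 CPM of Apoa1. The other 9 ovary libraries held at most 5.45 CPM of Apoa4 and 2.59 CPM of Apoa1, and all 3 high libraries were collected at ZT05. In these 3 libraries Alb was 2.58, 0.868 and 1.43 CPM, Apob was 0 in each, and Apoa2 was at most 0.136 CPM. Apoc3, between the 2 genes, was 7.24, 1.69 and 3.10 CPM there and up to 2.66 CPM in the others. Summed enterocyte markers were 6.70, 5.79 and 6.71 CPM, against 7.02 to 11.3 CPM in the other ovaries. Among them Vil1 was 5.79, 2.60 and 1.95 CPM, against 0.647 to 1.95, whereas Rbp2 was 0.271, 2.12 and 4.30 CPM, against 5.19 to 8.09, and Fabp2 was at most 0.0482 CPM in the 3. The source of these transcripts was not tested.

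One female Deficient heart (ZT17, replicate 1) held 4.18 CPM of Apoa1, 5.74 of Apoa2 and 82.1 of Alb, where the other female hearts held at most 0.948 CPM of Apoa1 and 11.0 CPM of Alb.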
